A study of Mus musculus with 2 samples.

Results

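The cells described here are sorted mouse bone marrow cells, mostly from a hematopoietic stem cell gate, chosen by how many transcripts of the receptor gene Kit were counted in each. A cell was called Kit-high when it held at least 3 Kit unique molecular identifiers (UMIs, tags that mark single captured transcripts) and Kit-undetected when it held 0. Of 10809 droplet barcodes, 1599 had at least 1500 UMIs and at most 20% of UMIs from mitochondrially encoded genes. Among these, 373 were Kit-high and 606 Kit-undetected, and the 620 cells with 1 or 2 Kit UMIs belong to neither side. Because the Kit count itself chose the cells, Kit levels are given as a description, and every other gene was compared with Kit left out of the totals.

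Libraries were made with inDrops, a droplet method for single-cell mRNA sequencing, from lineage-depleted whole bone marrow (B220, Gr1, Ter119, CD4 and CD8 were the depletion markers). GFP cells came from Mds1-GFP/+ Flt3-Cre mice and were sorted on DAPI-GFP+ alone, with no gate on KIT protein. The larger share of the pool was SLAM LT-HSCs (long-term hematopoietic stem cells) from wild-type mice, sorted as DAPI-Lin-cKit+Sca+CD48-CD150+, so these cells had been selected for KIT protein. The reporter cassette lies between loxP sites, and Flt3-Cre removes it from cells in which Cre has acted. Cre is under Flt3 control, so the GFP cells are those with no such history. The mixture is 1 pool, sequenced as technical aliquots 1 and 2, so n = 1 and no test between conditions exists. The number, age and sex of the animals were not given in the labels used here.

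Kit encodes the receptor tyrosine kinase for stem cell factor, the product of Kitl, which niche cells present to stem cells. Ligand binding pairs receptors, and signals then run through PI3-kinase and AKT, through RAS and the MAP kinases, and through STAT factors, with phosphatases and CBL ligases acting as brakes. Bone marrow stem and progenitor cells carry KIT on their surface, most granulocytes and B and T cells do not, and mast cells keep it. Transcript counts and surface protein are different measures, and a stem cell sorted on KIT protein can hold 0 counted Kit transcripts.

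The Kit gene lies on chromosome 5 (GRCm38, 75574916 to 75656722, plus strand; GENCODE vM21). The stretch just before its annotated start is shown because Kit is the transcript that divides the cells, and the same stretch of Pf4, a platelet gene on chromosome 5 (90772435 to 90773383, plus strand) whose ratio differed in direction between the aliquots, is shown beside it. Both come from RefSeq promoter windows (GRCm38.p6), read 5′ to 3′ on the plus strand, and capitals mark the letters AGGAAG on either strand, a core that ETS family factors can bind.
Kit, chr5:75574737-75574915: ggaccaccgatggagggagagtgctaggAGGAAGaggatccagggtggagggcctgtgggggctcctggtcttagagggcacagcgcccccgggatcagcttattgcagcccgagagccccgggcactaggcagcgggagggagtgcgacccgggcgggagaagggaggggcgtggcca
Pf4, chr5:90772185-90772434: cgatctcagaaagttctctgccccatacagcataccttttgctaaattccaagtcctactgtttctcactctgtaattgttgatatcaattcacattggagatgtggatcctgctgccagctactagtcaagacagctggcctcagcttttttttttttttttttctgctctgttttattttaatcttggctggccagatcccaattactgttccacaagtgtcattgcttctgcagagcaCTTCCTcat
The match lies 151 bases before the annotated start of Kit, on the plus strand, and 9 bases before that of Pf4, on the minus strand. AGGAAG occurs on either strand in 29.6% of 32536 promoter windows of 250 bases, so its presence is common. The letters AGATAA, which GATA factors can bind, were searched on both strands; a match is in neither stretch and in 9.97% of those windows. The Kit stretch, at 179 bases, is shorter than those windows and than the Pf4 stretch, at 250 bases. A match is a description of letters, not a binding site.

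Kit was a low-count transcript in most cells. Over all kept cells its summed level was 651 CPM (counts per 1000000 UMIs), 584 in aliquot 1 and 658 in aliquot 2, which at the median depth of 2213 UMIs corresponds to 1.44 Kit UMIs per cell. A Kit UMI was found in 62.1% of kept cells. The counts fell off without a gap: 606 cells held 0 Kit UMIs, 380 held 1, 240 held 2, 130 held 3, 94 held 4, and the highest single cell held 17. Just outside the threshold, the 240 cells with 2 Kit UMIs had a median of 885 Kit CPM, and just inside it the 130 cells with 3 had 1260. The threshold of 3 therefore divides a continuous range and marks no separate class.

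**Figure D1:**
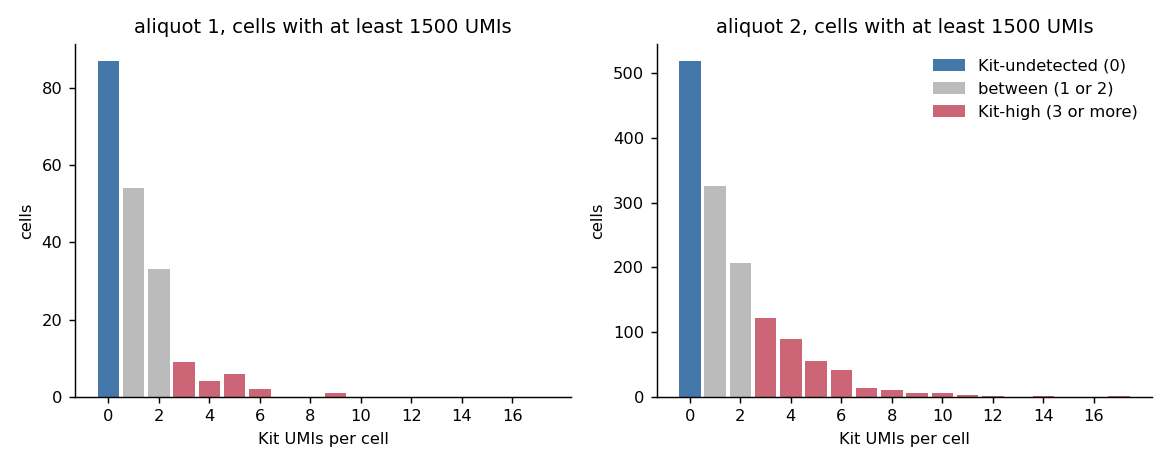
Number of cells (y axis) by Kit UMIs per cell (x axis) in each aliquot, with Kit-undetected cells in blue, cells with 1 or 2 Kit UMIs in grey and Kit-high cells in red. The bars decline from 0 upward with no gap at 3, and aliquot 1 holds 22 Kit-high cells against 351 in aliquot 2.

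Barcodes with few UMIs also carried Kit, and whether from free RNA or from shallow cells was not tested. The 6492 barcodes with under 200 UMIs held 335 Kit UMIs in all, a level of 603 CPM (95% counting interval 540 to 671), close to the 651 CPM of the kept cells. Kit was also counted in the cells with over 0.5% of their UMIs from granulocyte and basophil genes. Of these, 8 of 42 held a Kit UMI, 19% (8.60 to 34.1%, Clopper-Pearson), at a median of 2667 UMIs. The other kept cells held one in 985 of 1557, 63.3% (60.8 to 65.7%), at a median of 2210 UMIs. Their Kit levels were 117 and 669 CPM, and the marker cells were the deeper of the sets.

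Depth differed between the sides before matching, with medians of 2432 UMIs in Kit-high and 2111 in Kit-undetected cells. Cells were therefore paired 1 to 1 within an aliquot by UMI total, which kept 369 cells on each side, 22 pairs in aliquot 1 and 347 in aliquot 2. After pairing the medians were 2420 and 2391 UMIs, 1229 and 1200 detected genes, and 4.77 and 4.63% mitochondrial UMIs. The paired Kit-high cells held 1699 Kit UMIs, a level of 1739 CPM (1657 to 1824), with 2403 CPM in aliquot 1 and 1711 in aliquot 2. The barcode name lists of the aliquots share 461 names, and 1 of these passed the filter in both and was on a side of the comparison.

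Most genes had ratios near 1. Of 6569 genes with at least 50 UMIs in the paired cells, 52.1% were above a ratio of 1 (Kit-high over Kit-undetected) and the median log2 ratio was 0.02. At least 1.5-fold higher in Kit-high cells were 415 genes, 6.32%, and 383 genes, 5.83%, were at least 1.5-fold lower. With 1 pool these are counts of ratios past a size, not of tested differences. All intervals below are 95% counting intervals, which leave out the spread between cells and between animals.

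**Figure D2:**
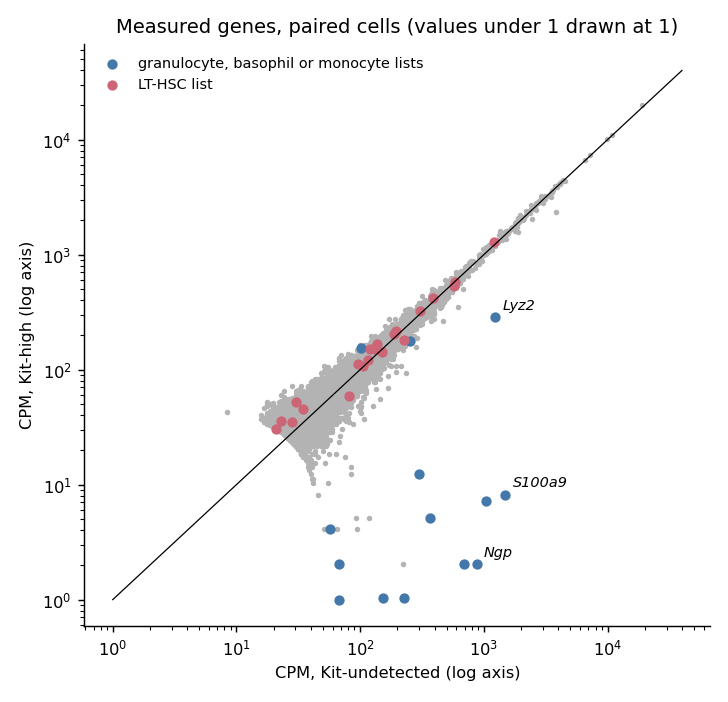
Summed level of each measured gene in paired Kit-undetected cells (x axis, CPM, log scale) and Kit-high cells (y axis, CPM, log scale), with the line of equality. Genes of the granulocyte, basophil or monocyte lists (blue) reach down to the lower edge, such as S100a9 at 1489 against 8.20 CPM, while the LT-HSC list (red) follows the line.

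The clearest difference was in genes of myeloid cells, whose UMIs lay mostly on the Kit-undetected side. The granulocyte list had 11 of 16 members measured, with a median log2 ratio of -7.19. At least 1.5-fold lower in Kit-high cells were 9 of the 11, beside 5.83% of all genes. At least 1.5-fold higher was 1, beside 6.32%. Its summed level was 656 CPM in Kit-high and 6579 CPM in Kit-undetected cells. S100a9, a calcium-binding protein of neutrophil cytosol, had 8 UMIs against 1424. Its partner S100a8 had 7 against 999. Both were at 0 in the 22 Kit-high cells of aliquot 1, beside 106 and 70 UMIs in their partners. Ngp, a neutrophil granule protein, had 2 UMIs against 840, and Camp, which encodes the cathelicidin antimicrobial peptide, had 2 against 665. Elane and Mpo, on the same list and named after their values were seen, had 1 against 147 and 4 against 55. The top cell held 28.5% of the S100a9 UMIs and the top cell for Ngp 35.2%, so a small number of cells set these levels.

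Lyz2, the lysozyme of granulocytes and macrophages, had the lowest ratio of the genes that could be ranked. In aliquot 1 it had 9 UMIs in Kit-high cells and 90 in Kit-undetected cells, and in aliquot 2 it had 269 and 1091. The ratio was 0.23 (0.20 to 0.26), with 0.10 in aliquot 1 and 0.24 in aliquot 2. A Lyz2 UMI was nonetheless found in more Kit-high than Kit-undetected cells, 48.0 against 40.1%, so the excess of Lyz2 UMIs sat in few Kit-undetected cells. Without cells in which granulocyte and basophil genes exceed 0.5% of UMIs, the Lyz2 ratio was 1.21 (1.01 to 1.45). The 20 paired cells over this limit were all Kit-undetected, and Lyz2 is 1 of the genes that define the limit, so an upward move of its ratio is built into the step.

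Those marker cells lay on 1 side. None of the 369 paired Kit-high cells passed the 0.5% limit for granulocyte and basophil genes, a share of at most 0.995% (upper bound, Clopper-Pearson), while 20 of 369 Kit-undetected cells did, 5.42% (3.34 to 8.25%). Before pairing they were 1 of 373 and 34 of 606. By aliquot, the Kit-undetected side held 14 of 87 in aliquot 1 and 20 of 519 in aliquot 2. Cells with at least 2 UMIs of myeloid markers were 12 of 369 (3.25%, 1.69 to 5.61%) and 38 of 369 (10.3%, 7.39 to 13.9%). Whether these cells came through the GFP sort, through the stem cell gate or as doublets was not tested.

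Basophil and monocyte genes had the same direction. The basophil and mast cell list summed to 31.8 CPM in Kit-high and 498 CPM in Kit-undetected cells. Its 1 measured member, the basophil protease Prss34, had 5 UMIs against 350, and 58.3% of these came from 1 cell. Of the mast cell proteases, Tpsb2 and Mcpt4 were at 0 on both sides, Tpsab1 had 1 UMI on each, Cma1 had 0 against 2, and Cpa3, which basophils and progenitors also express, had 14 against 26. The monocyte, macrophage and dendritic cell list summed to 33.8 and 238 CPM. Ly6c2, a surface antigen of inflammatory monocytes, had 2 UMIs against 65. F13a1, a coagulation factor subunit made by monocytes, had 0 against 64, at least 21.8-fold lower when 0 is set to 3 counts over the paired cells.

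Several of the lowest ranked genes moved with these cells. Fcer1g, the shared signalling chain of Fc receptors, had 54 UMIs against 139, a ratio of 0.38 (0.27 to 0.53). Cebpb, a myeloid transcription factor, had 93 against 185, a ratio of 0.49 (0.38 to 0.64). Plac8, a small cysteine-rich protein of myeloid and lymphoid progenitors, had 257 against 444, a ratio of 0.57 (0.49 to 0.66). Without the granulocyte and basophil marker cells these ratios were 0.72, 1.07 and 0.99. Crip1 and Psap, the latter the precursor of the saposins of lysosomes, had ratios of 0.55 and 0.56, which became 0.75 and 0.84 without those cells.

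Markers of other cell types were low on both sides. The B cell list summed to 40.0 and 24.1 CPM with none of its 10 members reaching 50 UMIs, and Ms4a1, Vpreb3 and Igll1 were among those at 0. The T and NK cell list summed to 96.4 and 110 CPM, with Cd3g, Klrd1, Gzma and Cd5 at 0. Its 1 measured member, Nkg7, a granule protein of NK and cytotoxic T cells, had 58 UMIs against 76, and below 50 UMIs Cd3d had 10 against 5, Lck 9 against 13 and Cd247 9 against 0. The endothelial and stromal list summed to 94.3 and 78.4 CPM, with Cdh5 at 0.

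A second set of lower genes kept its ratio when the granulocyte and basophil marker cells were left out. Itga2b, which encodes CD41, the integrin alpha chain of platelets and of megakaryocyte-primed stem cells (chromosome 11, 102453297 to 102470122, minus strand), was found in 17.6% of Kit-high and 25.5% of Kit-undetected cells. It had 8 UMIs against 15 in aliquot 1 and 98 against 188 in aliquot 2. Levels were 109 and 212 CPM, a ratio of 0.51 (0.40 to 0.65), with 0.53 and 0.51 by aliquot. Without the marker cells the Itga2b ratio was 0.47, and over 19 settings for choosing and weighting cells it lay between 0.44 and 0.71. An upper UMI limit among these settings left out no cell.

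Gata1, the transcription factor that drives erythroid, megakaryocyte and basophil differentiation and binds the Kit locus (chromosome X, 7959260 to 7978071, minus strand), was rarer still. It had 28 UMIs in Kit-high and 57 in Kit-undetected cells, 2 against 9 in aliquot 1 and 26 against 48 in aliquot 2. The Gata1 ratio was 0.48 (0.29 to 0.77), and 0.45 without the granulocyte and basophil marker cells. Gata2, its relative that is active in stem cells, showed no such difference, with 409 against 374 UMIs and a ratio of 1.07 (0.93 to 1.24).

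Pf4, platelet factor 4, was low on the Kit-high side in 1 aliquot only. It had 78 UMIs against 222 in aliquot 2, a ratio of 0.34, but 13 against 2 in aliquot 1, a ratio of 6.50. Both aliquots together gave 0.40 (0.31 to 0.51). A single cell held 14.0% of Pf4 UMIs, and without it the ratio was 0.49. Among cells with 0 or 1 UMI of G2 and M phase genes (Hmgb2 and Tubb4b not counted) the Pf4 ratio was 0.87. The Pf4 value thus depended on which cells were included.

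Of 14 measured members of the megakaryocyte and platelet list, 6 were above and 8 below a ratio of 1, with a median log2 ratio of -0.05 beside 0.02 over all genes. At least 1.5-fold lower were 3 of the 14, beside 5.83% of all genes, and 0 were 1.5-fold higher. Without the granulocyte and basophil marker cells the median was -0.16 with 4 of 14 lower, and without reporter cells it was 0.19 with 2 of 13 lower. The third lower member was Treml1, a platelet receptor, with 19 UMIs against 32 and a ratio of 0.58 (0.31 to 1.06), named after its value was seen. Cd9, a tetraspanin of platelets, had 419 against 360, a ratio of 1.14 (0.99 to 1.32), and Slc18a2, the vesicular monoamine transporter, had 164 on each side.

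The remaining low genes have general cellular roles. Slc16a1, the lactate transporter MCT1 (chromosome 3, 104638668 to 104658462, plus strand), had 2 UMIs against 10 in aliquot 1 and 64 against 119 in aliquot 2, a ratio of 0.50 (0.37 to 0.68). It moved to 0.81 when every cell was thinned to 1500 UMIs instead of being paired. Phf5a, a subunit of the SF3b splicing complex, had 106 against 186, a ratio of 0.56 (0.44 to 0.71). Cdt1, which loads the MCM helicase before S phase, had 81 against 139, a ratio of 0.57 (0.43 to 0.76). Without the granulocyte and basophil marker cells, Slc16a1, Phf5a and Cdt1 stood at 0.49, 0.58 and 0.59.

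Kif20a, a kinesin of the central spindle, led the ranking with 9 UMIs against 2 in aliquot 1 and 37 against 17 in aliquot 2, a ratio of 2.37 (1.36 to 4.29). Ckap5, a microtubule polymerase, had 95 against 49, a ratio of 1.90 (1.33 to 2.74). Kpna2, an importin alpha that is abundant in dividing cells, had 81 against 50, a ratio of 1.59 (1.1 to 2.31). Knstrn, a kinetochore and spindle protein, had 62 against 39, a ratio of 1.56 (1.03 to 2.39). The ranking kept no gene whose aliquots lay on opposite sides of 1, so their shared direction was set by the choice, and aliquot 1 held 11 to 13 UMIs of each.

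Kif20a and its neighbour Cdc23, a subunit of the anaphase-promoting complex, overlap at their 3′ ends on opposite strands of chromosome 18, Kif20a at 34624613 to 34633277 on the plus strand and Cdc23 at 34630951 to 34651735 on the minus strand. Cdc23 was among the lowest genes, with 51 UMIs against 98 and a ratio of 0.51 (0.36 to 0.72). No label or header used here says if reads were counted by strand, so reads of the shared end cannot be assigned with certainty and both ratios are uncertain. Added up as 1 locus, Kif20a and Cdc23 had 97 UMIs against 117, a ratio of 0.81. Mrpl17, Fchsd2, Tubb4b and Lmo2 also end inside a gene on the opposite strand, and Cdt1 ends inside a longer model on the same strand.

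Mrpl17, a mitochondrial ribosomal protein (chromosome 7, 105803206 to 105811099, minus strand), was found in 17.9% of Kit-high and 10.8% of Kit-undetected cells. It had 6 UMIs against 5 in aliquot 1 and 97 against 47 in aliquot 2, a ratio of 1.94 (1.38 to 2.76). Fchsd2, an adaptor of actin assembly and endocytosis (chromosome 7, 101092863 to 101284405, plus strand), had 132 against 67, a ratio of 1.93 (1.43 to 2.63). Neither aliquot 1 value stood apart from 1, and the excess of Mrpl17 and Fchsd2 came from aliquot 2. Hmgn1, a nucleosome-binding protein (chromosome 16, 96120618 to 96127729, minus strand), had the most UMIs of the 12 highest genes, 269 against 165, and a ratio of 1.60 (1.31 to 1.95). Nrip1, a nuclear receptor corepressor, had 146 against 90, a ratio of 1.59 (1.21 to 2.09).

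Trim59, Hiat1, Pex7 and Arl2bp complete the 12 highest genes. Trim59, a tripartite motif protein, had a ratio of 1.94 (1.3 to 2.92) on 77 against 39 UMIs, with 8 UMIs on each side of aliquot 1. Hiat1, a membrane transporter of the major facilitator family, had 1.87 (1.37 to 2.57) on 122 against 64, with 7 on each side of aliquot 1. For Pex7, the import receptor of peroxisomes, the counts were 65 and 38 and the ratio 1.68 (1.11 to 2.57), and for Arl2bp they were 109 and 67 and 1.59 (1.17 to 2.20). In these genes, too, the difference lay in aliquot 2. Without the granulocyte and basophil marker cells Trim59 stood at 1.83, Hiat1 at 1.89, Pex7 at 1.48 and Arl2bp at 1.66.

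**Figure D3:**
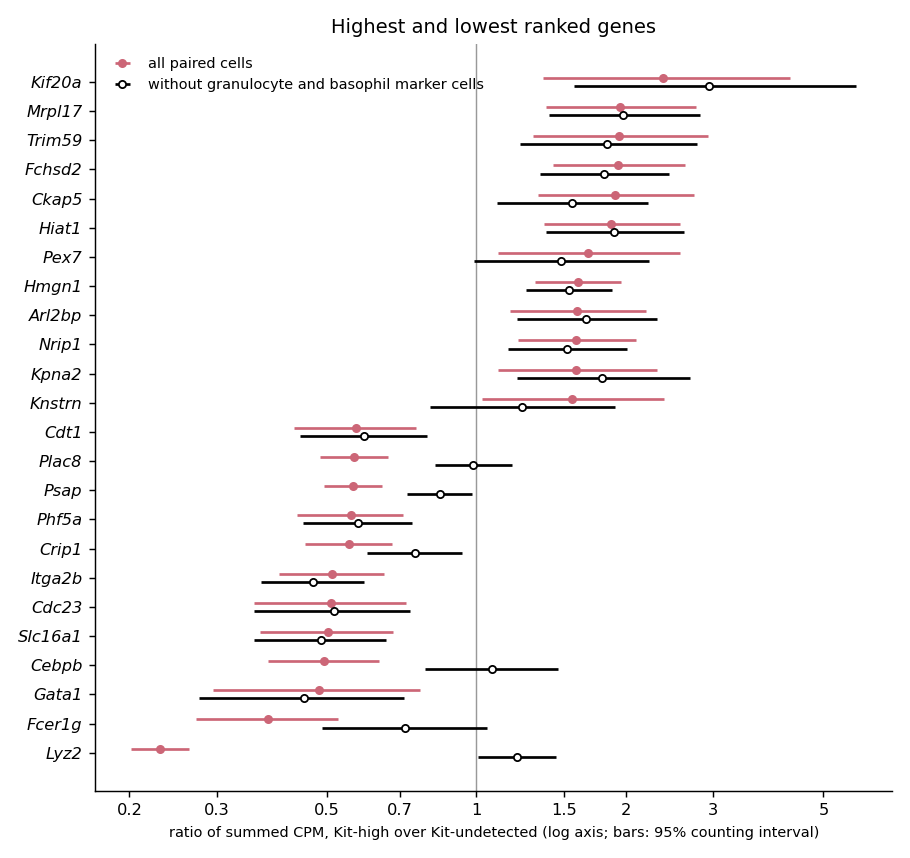
Ratio of summed CPM, Kit-high over Kit-undetected (x axis, log scale), for the 12 highest and 12 lowest ranked genes, over all paired cells (red) and without granulocyte and basophil marker cells (open), with 95% counting intervals. Lyz2, Cebpb and Plac8 move to about 1 or above it without those cells, while Itga2b, Gata1, Slc16a1, Cdc23, Phf5a and Cdt1 stay below 0.6.

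Of 23 measured G2 and M phase genes 17 were above 1, with a median log2 ratio of 0.19. At least 1.5-fold higher were 4 of the 23, beside 6.32% of all genes, and 0 were 1.5-fold lower. The list depended on the choice of cells. With every cell thinned to 1500 UMIs the median was 0.01 and 8 of 16 members were above 1. With cells stratified by aliquot and depth it was 0.09 with 1 of 23 past 1.5-fold. In the other direction, it was 0.37 with 18 of 19 above 1 in cells of at least 2500 UMIs. Without granulocyte and basophil marker cells it was 0.32 with 15 of 19 above 1. The aliquots differed, with medians of -0.18 in aliquot 1 and 0.28 in aliquot 2. Tubb4b, a beta tubulin, had 37 UMIs against 29 in aliquot 1 and 391 against 276 in aliquot 2, a ratio of 1.38 (1.18 to 1.60). Ube2c, the ubiquitin-conjugating enzyme of the anaphase-promoting complex, had 119 against 71, a ratio of 1.64 (1.21 to 2.24), with 9 against 11 in aliquot 1, and was named after its value was seen. The proliferation marker Mki67 did not share this, with 164 against 177 and 0.91 (0.73 to 1.13), and Top2a, the mitotic topoisomerase, had 265 against 236 and 1.1 (0.92 to 1.32). Cells with at least 2 UMIs of the list, Hmgb2 and Tubb4b not counted, were no more frequent among Kit-high cells. The shares were 149 of 369 (40.4%, 35.3 to 45.6%) against 170 of 369 (46.1%, 40.9 to 51.3%). By aliquot they were 68.2 against 77.3% in aliquot 1, on 22 cells a side, and 38.6 against 44.1% in aliquot 2. The aliquots were thus unlike in cell content, and why was not tested.

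S phase genes were divided, with 10 of 23 measured members above and 13 below 1 and a median log2 ratio of -0.12. Past 1.5-fold were 1 higher and 2 lower, beside 6.32 and 5.83% of all genes. With at least 2 Kit UMIs as the limit, 12 of 23 were above 1 and the median was 0.03. The helicase subunit Mcm7 had 359 UMIs against 415, a ratio of 0.85 (0.73 to 0.98), and Mcm2 had 242 against 228, a ratio of 1.04 (0.87 to 1.25). Of the cyclin and quiescence genes none of 11 passed 1.5-fold. Cdk6, the kinase that acts when stem cells leave quiescence, had 459 against 366 UMIs and 1.23 (1.07 to 1.41). The highest ratio of this list was that of Foxo3, a forkhead factor of stem cell quiescence named after its value was seen, with 105 against 69 and 1.49 (1.09 to 2.05).

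At the limit of 3 Kit UMIs, genes of the Kit pathway did not move as a group. Kitl, the ligand, had 1 UMI on each side. Of 44 genes on the ligand and signalling list 37 were measured, 19 above and 18 below 1, with a median log2 ratio of 0.00. At least 1.5-fold higher was Gab1, a docking adaptor, with 42 UMIs against 23 and a ratio of 1.79 (1.05 to 3.12). At least 1.5-fold lower were Lyn, a SRC family kinase downstream of the receptor, with 45 against 72 and 0.61 (0.41 to 0.90), and Sos2, a RAS exchange factor, with 32 against 49 and 0.64 (0.40 to 1.02). A share of 1 in 37 higher and 2 in 37 lower is near or below the background shares of 6.32 and 5.83%. With at least 5 Kit UMIs as the limit, 15 of 23 measured members were above 1, with a median of 0.14. There 5 of 23 were at least 1.5-fold higher and 0 lower, beside 7.92 and 7.18% of all genes.

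By role, the PI3-kinase branch was mixed. The regulatory subunit Pik3r1 had 171 UMIs against 118, a ratio of 1.42 (1.12 to 1.81), and the catalytic subunit Pik3ca had 59 against 75, a ratio of 0.77 (0.54 to 1.1). Akt1, the kinase below them, was level at 289 UMIs against 283. In the RAS and MAP kinase branch, Nras was at 1.24 (1.01 to 1.52) and Hras at 1.24 (0.77 to 2.00). Grb2, the adaptor above them, was at 0.90 (0.74 to 1.09).

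The STAT factors and the brakes gave no shared direction. Stat5b was at 1.17 (0.93 to 1.47), Stat5a at 1.04 (0.76 to 1.42) and Stat3 at 0.87 (0.67 to 1.12). Among the brakes, the phosphatases Ptpn6 and Inpp5d stood at 0.93 (0.72 to 1.21) and 0.94 (0.75 to 1.19), and the adaptor Sh2b3 at 0.87 (0.53 to 1.44). Vav1, an exchange factor phosphorylated on receptor activation, had 82 UMIs against 55, a ratio of 1.46 (1.03 to 2.10). Most of these intervals include 1.

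Genes on the Kit locus factor list, transcription factors and their partners, were also near the level of all genes. Of 18 measured, 11 were above and 7 below 1, with a median log2 ratio of 0.06 (0.00 without the granulocyte and basophil marker cells). Gata1 was the only member past 1.5-fold, 1 of 18 lower and 0 higher, beside 5.83 and 6.32% of all genes. Lmo2, the bridging factor of the TAL1 and GATA complex, had the highest ratio of the list, with a UMI in 74.0% of Kit-high and 60.4% of Kit-undetected cells. It had 20 against 19 UMIs in aliquot 1 and 573 against 446 in aliquot 2, a ratio of 1.25 (1.11 to 1.41). Its partner Tal1 was at 0.89 (0.72 to 1.1), and Runx1, a master regulator of blood stem cells, at 1.02 (0.81 to 1.27). Myb stood at 1.15 (0.97 to 1.37) and Spi1, which encodes PU.1, at 1.23 (0.88 to 1.72).

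The LT-HSC list differed little between the sides. Of 21 measured members 16 were above and 5 below 1, with a median log2 ratio of 0.13, or 0.04 without the granulocyte and basophil marker cells. Procr, the endothelial protein C receptor used to sort stem cells, had 118 UMIs against 110, a ratio of 1.05 (0.80 to 1.38). Hlf, a stem cell transcription factor, had 568 against 564, a ratio of 0.99 (0.88 to 1.11), and Meis1 had 315 against 289, a ratio of 1.07 (0.91 to 1.26). Mecom, the locus that carries the reporter, had 109 against 92, a ratio of 1.16 (0.87 to 1.55). Summed over the list, the level was 5011 CPM in Kit-high and 4815 CPM in Kit-undetected cells.

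Tek and Robo4 were the LT-HSC list members past 1.5-fold, 2 of 21 higher and 0 lower, beside 6.32 and 5.83% of all genes. Tek, the angiopoietin receptor TIE2 that stem cells carry, had 51 UMIs against 29, all in aliquot 2, a ratio of 1.72 (1.07 to 2.82). Robo4, a guidance receptor, had 35 against 22, a ratio of 1.56 (0.89 to 2.79), which fell below 1 under other choices of cells. On the lower side, Mycn had 178 against 218, a ratio of 0.80 (0.65 to 0.98), and Sult1a1 had 58 against 78, a ratio of 0.73 (0.51 to 1.04).

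Transcripts of the sort panel were scarce. Ly6a, which encodes Sca-1, had 213 UMIs against 187, a ratio of 1.12 (0.91 to 1.37). Slamf1, which encodes CD150, had 18 against 16. Cd48, whose protein was gated out of the wild-type cells, had 6 against 28, a ratio of 0.21 (0.07 to 0.52), and 0.39 without the granulocyte and basophil marker cells. The reporter transcript had 11 UMIs in 6 of 369 Kit-high cells (1.63%, 0.599 to 3.51%) and 29 in 16 of 369 Kit-undetected cells (4.34%, 2.50 to 6.95%). The summed ratio of the reporter was 0.37 (0.17 to 0.77), the intervals of the cell shares overlap, and a cell can carry the reporter with 0 UMIs of it counted.

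Multipotent progenitor, lymphoid and erythroid genes were mostly at low counts. Of 8 measured progenitor and lymphoid genes 3 were above and 5 below 1, with a median log2 ratio of -0.18, or -0.02 without the granulocyte and basophil marker cells. Cd34, a sialomucin of progenitors, had 267 UMIs against 255, a ratio of 1.03 (0.86 to 1.22), and Flt3 had 37 against 44, a ratio of 0.82 (0.52 to 1.31). Emb, an immunoglobulin superfamily protein, had 76 against 123, and its ratio of 0.61 (0.45 to 0.81) became 0.95 without the marker cells. Of 7 measured erythroid genes 4 were above and 3 below 1. At least 1.5-fold higher was 1 and lower was 1, beside 6.32 and 5.83% of all genes. Car2, a carbonic anhydrase, had 1576 against 1283, a ratio of 1.20 (1.12 to 1.3), and was above 1 in both aliquots. Hbb-bt, a beta globin, had 59 against 22, of which 1 cell held 19.8%, and a ratio of 1.92 without that cell. Of the other globins on the list, Hbb-bs had 1 UMI against 6, Hba-a2 had 1 against 5 and Hba-a1 was at 0. The measured members below 1 were Gata1, Gfi1b at 36 against 42 and Cpox at 28 against 36.

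Other cytokine receptors had 7 members above and 10 below 1 of 17 measured, with 2 at least 1.5-fold higher and 3 lower, beside 6.32 and 5.83% of all genes. Csf3r, the receptor for G-CSF, differed from the other granulocyte genes: it had 149 UMIs in Kit-high and 97 in Kit-undetected cells, a ratio of 1.51 (1.16 to 1.97), and a UMI in 30.1 against 23% of cells. Cxcr4, the niche chemokine receptor, was level at 149 against 147. The 3 receptors at least 1.5-fold lower were Il6ra at 0.29, Il6st at 0.64 and Csf2ra at 0.66, chosen after their values were seen. Without the granulocyte and basophil marker cells 1 of 16 measured receptors was that much lower. When cells holding 2 or more UMIs of myeloid markers were left out, 0 of 16 were.

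**Figure D4:**
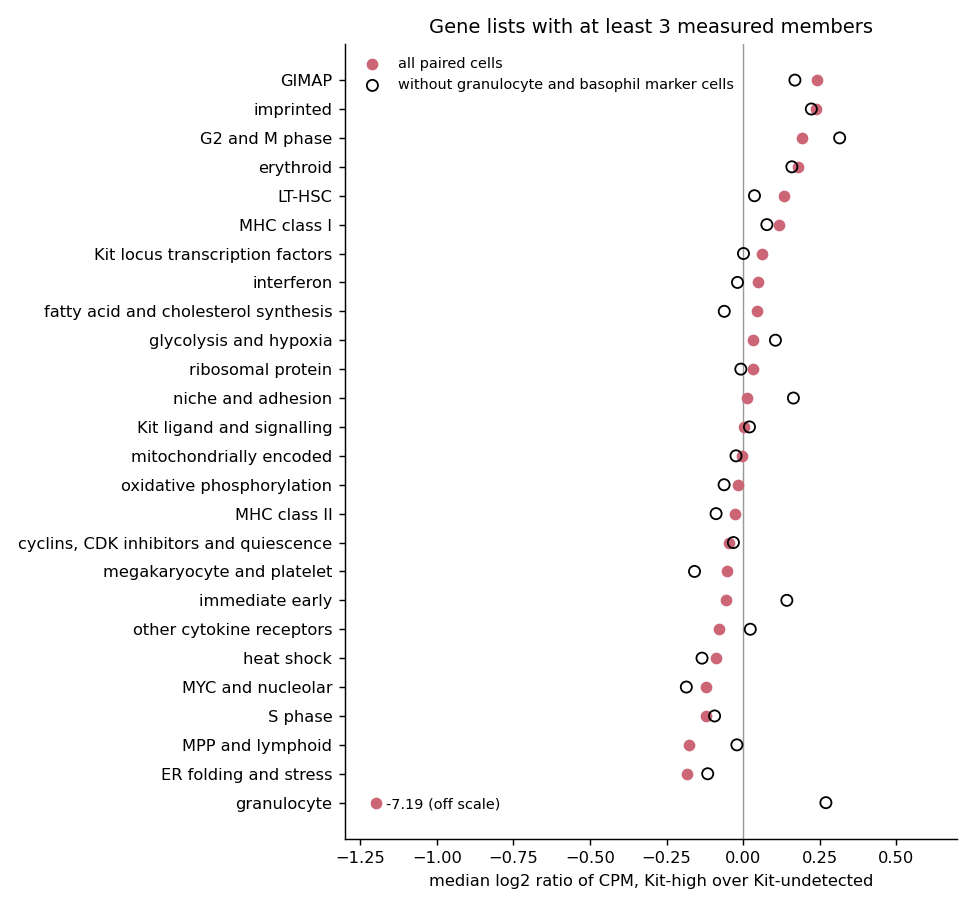
Median log2 ratio of CPM, Kit-high over Kit-undetected (x axis), for each gene list with at least 3 measured members, over all paired cells (red) and without granulocyte and basophil marker cells (open). The granulocyte list is off the scale at -7.19 and stands at 0.27, on 3 measured members, without those cells, which its own genes defined, while the other lists lie between -0.18 and 0.24 over all paired cells.

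Levels across the whole range of Kit counts were compared after thinning each cell once to 1500 UMIs. Lyz2 was at 964 CPM (901 to 1030) in cells with 0 Kit UMIs and at 321, 258, 280 and 263 CPM in cells with 1, 2, 3 to 4, and 5 or more. The largest step lay between 0 and 1 Kit UMI, and the levels from 1 upward lay between 258 and 321 CPM. Mrpl17 was at 51.7 CPM (38 to 68.8) at 0 and 127 (84.4 to 184) at 5 or more, and Kif20a at 16.5 (9.24 to 27.2) and 49.9 (24.9 to 89.3). For Hiat1 the levels were 77.0, 98.2, 66.7, 116 and 150 CPM. Lmo2 stood at 525, 535, 544, 625 and 694 CPM in the same order.

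Itga2b and Slc16a1 were lowest in the class with most Kit. Itga2b was at 157 CPM (133 to 185) with 0 Kit UMIs, 167 with 2 and 90.7 (55.4 to 140) with 5 or more. Slc16a1 was at 108 CPM (87.5 to 131) with 0 and 36.3 (15.7 to 71.5) with 5 or more. Its levels in the classes between are not given here. Over all thinned Kit-high cells the Slc16a1 ratio was 0.81, so the low level at 5 or more does not stand for the whole Kit-high side. Pf4 showed no steady order, at 114, 140, 61.1, 83.3 and 81.6 CPM. The classes are slices of 1 pool and hold 606, 380, 240, 224 and 147 thinned cells, so the class of most Kit has the widest intervals.

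**Figure D5:**
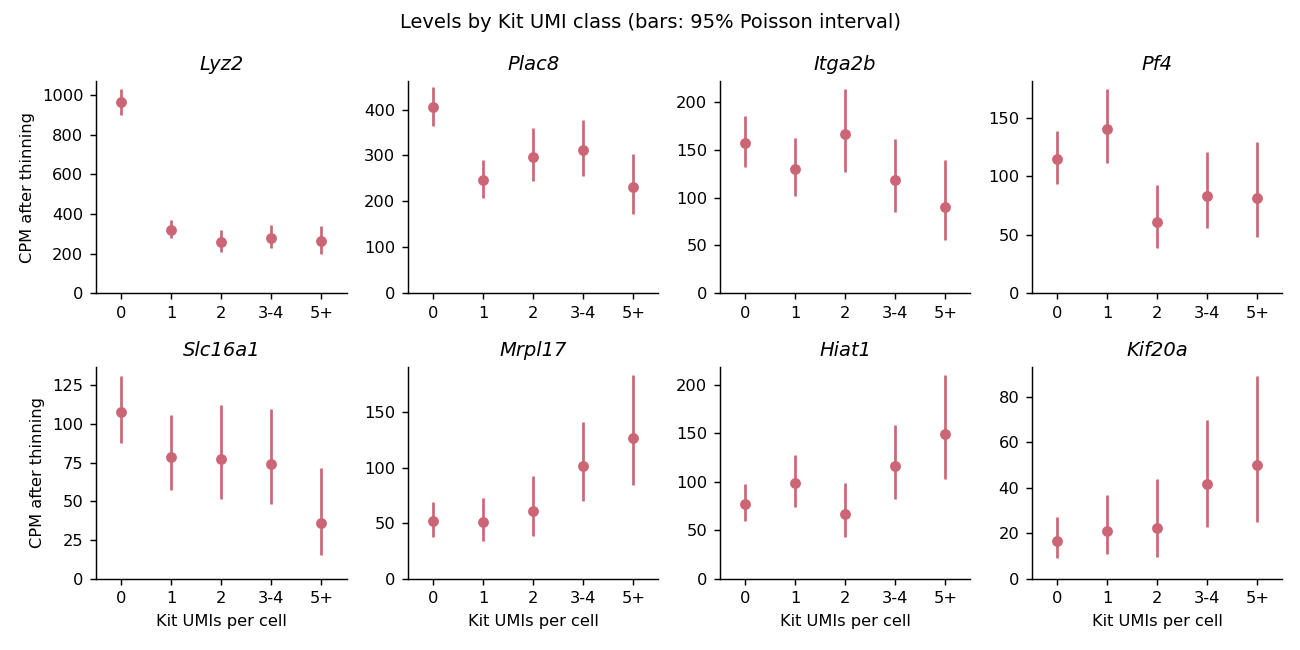
Summed level after thinning to 1500 UMIs per cell (y axis, CPM, from 0) by Kit UMIs per cell (x axis) for 8 genes, with 95% Poisson intervals. Lyz2 is at 964 CPM with 0 Kit UMIs and between 258 and 321 CPM from 1 upward, while Mrpl17 and Kif20a are highest at 5 or more.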

How the data were processed

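The deposited files hold raw UMI counts per droplet barcode for 28206 features, whole numbers with no normalization by the authors. Per the submitters' processing notes, Bowtie 1.1.1, SAMtools 1.3.1, RSEM 1.3.0 and GRCm38 were used; their roles, the strand setting and the division of reads among near-identical genes are not given in the sources used here.

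The limits of 1500 UMIs and of 20% mitochondrially encoded UMIs left 196 cells in aliquot 1 and 1403 in aliquot 2. Doublets were not removed and no caller was run. Each Kit-high cell, deepest first, was paired with the nearest unused Kit-undetected cell of its aliquot, at most 0.1 log2 apart in UMIs without Kit and reporter. Summed counts were scaled to CPM without Kit and reporter, and ratios carry exact conditional binomial 95% intervals, which cover counting error only. Paired cells held 975287 and 956060 such UMIs. The code for ratios and intervals was tested on simulated data. Cells are not replicates, so no p-value is given.

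The members and gene lists were chosen with earlier results of these data known. Named genes are the 12 highest and 12 lowest ratios among 897 genes that had at least 50 UMIs, 10 cells with the gene on the higher side, no cell with over 20% of its UMIs, and no aliquot on the other side of 1, each aliquot with at least 10 UMIs. The Kit signalling, Kit locus factor and LT-HSC lists and the 6 members with most UMIs of other lists were added, with the sort panel. Genes outside this rule are named as such in the text. Positions come from GENCODE vM21. Calculations used pandas 2.3.3, scipy 1.17.1 and numpy 2.4.6, and plots matplotlib 3.10.9, all under Python 3.11.15. Values of some list members are not reported here.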

Additional observations from a re-analysis of the deposited data

How the results depend on the processing

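Alternatives changed the pairing, the Kit threshold, the depth and mitochondrial limits, the cells and the UMI minimum per gene. With at least 5 Kit UMIs, 257 genes were at least 1.5-fold higher and 233 lower, of 3246 measured. Among cells with 0 or 1 UMI of G2 and M phase genes (Hmgb2 and Tubb4b not counted), 289 were higher and 248 lower of 3906 measured. A minimum of 20 UMIs per gene gave 1001 and 922 of 9557 measured, and of 1 UMI 2413 and 2520 of 15033. Leaving out an aliquot gave 12 to 397 higher and 14 to 380 lower; aliquot 1 alone has 22 pairs and 187 measured genes, and of its calls 0 of 12 higher and 6 of 14 lower were called in both aliquots together. Robo4 was at 0.768 with at least 5 Kit UMIs and at 0.970 with at least 2500 UMIs per cell. Without granulocyte and basophil marker cells, Cebpb was at 1.07, Lyz2 at 1.21 and the granulocyte list median at 0.27, a move that the choice of the cells left out by these genes builds in. Another alternative, chosen after seeing the data, left out cells holding 2 or more UMIs of myeloid markers. There Cebpb was at 1.20, Lyz2 at 1.35, Plac8 at 1.43, Kif20a at 5.31 and the granulocyte list median at 0.43. Of the gene ratios under all alternatives, 3701 stayed within the counting interval of the reported value. Another 295 left it on the same side, or without a call to lose, and 7 crossed 1 after being past 1.5-fold. The 3701 include those under an upper limit on UMIs per cell that left out no cell. The deepest cell on either side held 9241 UMIs, so these ratios were fixed in advance. A stricter mitochondrial limit kept 368 cells on each side, so little could move there either. The 3701 therefore overstate how far the ratios were tested. Leaving out the barcode kept in both aliquots, also chosen after seeing the data, gave 417 higher and 384 lower. Depth is a limit of this comparison. At 1.44 expected Kit UMIs per cell, a count of 0 does not show that a cell lacks Kit. Genes under 50 UMIs were not ranked.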

Other observations

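Further gene groups are described here by their values alone, beside a median log2 ratio of 0.02 over all genes. MHC class I genes had 9 of 10 measured members above 1 and a median log2 ratio of 0.12. In aliquot 1 it was 0.00 with 6 of 10 above 1, and in aliquot 2 0.11 with 9 of 10. H2-K1, a classical class I heavy chain, had 3088 UMIs against 2760, a ratio of 1.1 (1.04 to 1.15). Imprinted genes had 5 of 6 above 1 and a median of 0.24, or -0.02 with every cell thinned to 1500 UMIs, among them Grb10, an adaptor that binds receptor tyrosine kinases, with 112 against 74 and 1.48 (1.1 to 2.02). Genes of MYC and the nucleolus had 13 of 17 below 1 and a median of -0.12, with Hspd1, a mitochondrial chaperone, at 294 against 360 and 0.80 (0.68 to 0.94). Genes of protein folding in the endoplasmic reticulum had 12 of 15 below 1 and a median of -0.18, with the chaperone Hspa5 at 421 against 487 and 0.85 (0.74 to 0.97). The aliquots differed for this list, with medians of 0.26 in aliquot 1, on 11 members, and -0.17 in aliquot 2. Ribosomal protein genes had 59 of 79 above 1 at a median of 0.03, and oxidative phosphorylation genes 12 of 20 below 1 at -0.02. Without the granulocyte and basophil marker cells, 32 of 79 ribosomal protein genes were above 1, at a median of -0.007.

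Genes chosen after their values were seen include the highest ratio of all measured genes, Abca1, a cholesterol exporter, with 42 UMIs against 8 and a ratio of 5.15 (2.39 to 12.7). All its UMIs were in aliquot 2, and with all cells and no depth pairing the Abca1 ratio was 2.08. Aim2, a sensor of cytosolic DNA, had 47 against 17, a ratio of 2.71 (1.53 to 5.03). Among immediate early genes, Btg2, an antiproliferative factor, had 7 UMIs against 3 in aliquot 1 and 26 against 80 in aliquot 2, a ratio of 0.39 (0.25 to 0.59). Klf4 had 11 against 40, a ratio of 0.27 (0.12 to 0.54), while Fos and Jun, at 0.96 and 0.95, lay near 1. The immediate early list had 3 of 14 measured members at least 1.5-fold lower, beside 5.83% of all genes, and a median of -0.06. Without the granulocyte and basophil marker cells it had 1 of 13 and a median of 0.14, with Btg2 at 0.44.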
